A study of Mus musculus with 2 samples.

Results

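The Polycomb and trithorax regulators were followed in mDom-/- and wild-type mouse embryos as 39 genes, chosen by name from the known subunits and partners of these complexes. They comprise 24 Polycomb genes (8 of Polycomb repressive complex 2, PRC2, and 16 of PRC1) and 15 trithorax genes. Of the 39, 36 had at least 1 probe annotated to them alone, 45 probes in all, out of 18024 genes with such a probe on the array. The annotation carried the current symbol for each of these probes. Ash1l and Setd1b had no probe of their own, and Bmi1 had only a probe shared with another gene, so none of these 3 is given a value.

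Polycomb and trithorax proteins are opposing chromatin regulators that hold developmental genes off or on through cell division. PRC2 methylates histone H3 at the lysine that marks silenced genes, and PRC1 reads that mark and attaches ubiquitin to histone H2A. The trithorax side holds the COMPASS-type complexes, which methylate the H3 lysine found at active promoters and enhancers, and the demethylases that erase the PRC2 mark. In the early embryo both sides are best known for setting the domains of Hox expression along the body axis.

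Each group was 1 pool of RNA on 1 array: 45 embryos homozygous for the mDom mutation (mDom-/-), and 42 wild-type embryos. Embryos were matched by litter, collected at E8.5 (embryonic day 8.5) and reduced to the embryo proper. mDom (mDomino, p400) is the submitters' name for Ep400, the ATPase gene of the TIP60/p400 chromatin remodelling complex. How the allele was made is not stated in the labels. RNA labelled with biotin was hybridised to 1-colour CodeLink oligonucleotide arrays. Because each pool was hybridised once, no replicate error could be had and nothing could be tested; sizes of difference are set beside a probe error and beside all genes on the array.

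Intensities are multiples of each array's median, and a log2 ratio is mDom-/- over wild-type. Values under a floor of 0.541 were treated as unmeasured, and a ratio with 1 array below the floor is a bound. The difference between probes of 1 gene, over 1301 genes with 2 measured probes, gave a log2 ratio an SD of 0.25, which covers probe error and not differences between pools. Both Ep400 probes lay under the floor (-0.029 and 0.071 in the mDom-/- pool, 0.215 and 0.470 in the wild-type pool), so they do not check the labels. Neural markers, such as Pax6 and Six3, and paraxial mesoderm markers, such as Meox1 and Tcf15, were measured in both pools, with list medians of 0.06 (5 genes) and -0.00185 (5 genes), but the neural marker Sox2 was below the floor on both arrays. Single log2 ratios ran from -0.38 (Pax6) to 0.13 (Six3) in the neural list. In the paraxial mesoderm list they ran from -0.62 (Dll1, more than 1.5-fold lower) to 0.27 (Tbx6). All 8 compared red cell markers and all 6 compared endothelial markers read lower in the mDom-/- pool. Only 4 of the 8 and 4 of the 6 were measured on both arrays, and Rhag was nearly level (log2 ratio -0.01). Red cell markers summed to 40.5 in mDom-/- and 352.1 in wild-type, mostly from Hba-x (22.4 and 199.8) and Hbb-y (5.11 and 133.8). Endothelial markers summed to 39.2 in mDom-/- and 53.2 in wild-type. Of heart muscle markers 5 of 6 read lower, with a median log2 ratio of -0.82. Their sums were 544.9 in mDom-/- and 594.8 in wild-type, mostly from Myl7 (374.3 and 354.3), the 1 that read higher. Of visceral endoderm markers 4 of 8 read higher and 4 lower, with a median of 0.05 and sums of 867.1 in mDom-/- and 675.9 in wild-type. Both compared trophoblast and decidua markers read higher (15.3 in mDom-/- and 13.2 in wild-type). All 4 compared pluripotency markers read higher, with a summed level of 43.4 in the mDom-/- pool and 22.1 in wild-type, while Zfp42, the fifth, was below the floor on both arrays. In RNA pooled from the embryo proper, fewer cells of a type and less RNA per cell cannot be told apart.

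Transcripts of most Polycomb and trithorax regulators stood at nearly the same level in both pools, as did those of most compared genes. Of the 36 genes with a probe of their own, 35 were compared and 34 were measured on both arrays; only Jarid2, a targeting subunit of PRC2, lay below the floor on both (-0.030 in the mDom-/- pool and 0.207 in wild-type). Of the 35, 25 had a log2 ratio within the probe SD of 0.25, which holds for 63.5% of all 13136 compared genes. The median over the 35 was -0.08, against -0.00386 over all genes, and the median size of the ratio was 0.17, against 0.18. Ratios of 21 of the 35 were below 0, and 50.6% of all genes were. Between the probe SD and 1.5-fold lay 7 genes, 6 of them lower (Mtf2, Phf1, Cbx2, Kmt2c, Kmt2e and Kdm6a), where 14.9% of all genes were, and 1 higher (Pcgf2), where 13.2% were, though other probes of Kmt2c and Pcgf2 pointed the opposite way. The median was -0.06 for the 22 Polycomb genes and -0.08 for the 13 trithorax genes.

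A difference of at least 2-fold was seen for 1 of the 35, Cbx7, which was higher in the mDom-/- pool; 0.845% of all compared genes were at least 2-fold higher. With a lower bar of 1.5-fold, 3 were higher (Cbx7, Cbx8 and Phc3, all of PRC1), where 4.08% of all genes were, and none was lower, where 4.35% of all genes were. These 3 of 35 in either direction compare with 8.43% of all compared genes, a share that includes genes measured on 1 array only. Among genes measured on both arrays, 3 of 34 regulators and 792 of 11926 genes were past the bar. Split into 4 equal bins of brightness, these genes held 17 regulators in the second brightest bin and 10 in the brightest. Whether the regulators differ from genes of like brightness was not tested. Cbx7 was in the second brightest bin, in which 3.92% of genes were at least 1.5-fold apart. Cbx8 was in the next dimmer bin (7.68%) and Phc3 in the dimmest (13.1%), while none of the 10 regulators in the brightest bin was 1.5-fold apart (1.81%).

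**Figure D1:**
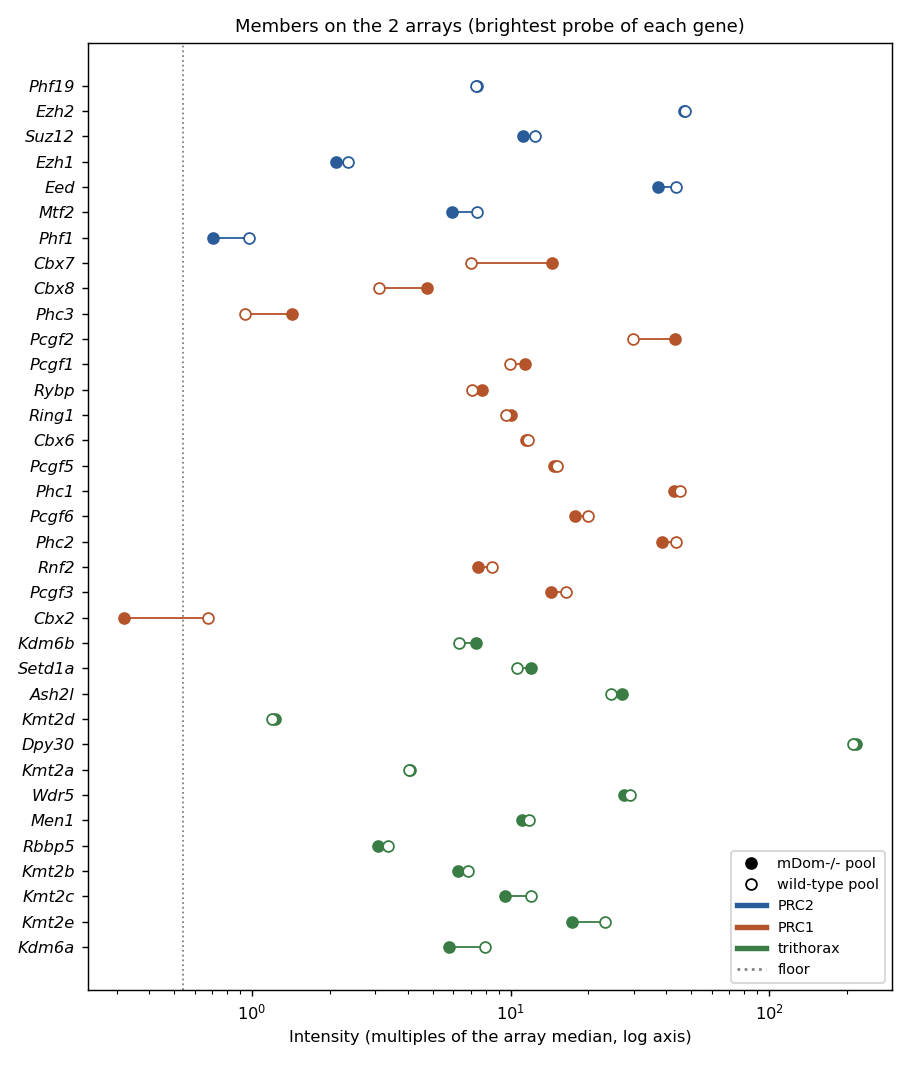
Intensity of the brightest probe of the 35 compared regulators, in multiples of the array median on a log axis, with filled circles for the mDom-/- pool and open circles for the wild-type pool (1 array each), ordered within PRC2, PRC1 and trithorax by ratio. Most pairs of circles nearly coincide; Cbx7 is the widest pair measured on both arrays, at 14.5 and 7.01, and Cbx2 lies below the dotted floor of 0.541 in the mDom-/- pool.

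The catalytic core of PRC2 was little different. Ezh2, the main H3 methyltransferase of PRC2 in dividing cells, read 46.7 in the mDom-/- pool and 47.3 in wild-type, a log2 ratio of -0.02. Eed, the subunit that binds the methyl mark, read 37.1 in mDom-/- and 43.7 in wild-type (-0.24). Suz12, the scaffold subunit, read 11.2 in mDom-/- and 12.4 in wild-type (-0.15). Ezh1, the second methyltransferase, read 2.11 in mDom-/- and 2.36 in wild-type (-0.16). All 4 ratios were below 0, as were 50.6% of all genes, and within the probe SD of 0.25. With 75th percentile scaling that of Ezh2 was 0.0036. The probe SD was taken over all levels of brightness. In the brightest of the 4 bins, which held Eed, the SD of all genes' log2 ratios, estimated from their median absolute deviation, was 0.19. Eed lay outside that narrower spread.

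Among the accessory subunits of PRC2, 2 of the 3 Polycomb-like proteins, which help bring the complex to chromatin, had ratios beyond the probe SD but short of 1.5-fold. Mtf2 read 5.91 in the mDom-/- pool and 7.44 in wild-type, 1.26-fold lower. Phf1 read 0.708 in the mDom-/- pool and 0.976 in wild-type, 1.38-fold lower, close to the floor. The third, Phf19, read 7.38 and 7.36 in the mDom-/- and wild-type pools, a log2 ratio of 0.00416. Over the 7 compared PRC2 genes 6 ratios were below 0 (5 with 75th percentile scaling), as were 50.6% of all genes. The PRC2 median was -0.16, against -0.00386 over all genes.

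Ratios of the 15 compared PRC1 genes ran from -0.32 to 1.05 by brightest probe, with 7 above 0 and 8 below. The ubiquitin ligase subunits, which every PRC1 complex contains in one form or the other, were nearly level: Ring1 read 9.996 in the mDom-/- pool and 9.58 in wild-type (log2 ratio 0.06). Rnf2 (RING1B), the principal ligase in embryos, read 7.46 in mDom-/- and 8.49 in wild-type (-0.19). Both lay within the probe SD.

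The Cbx proteins carry the chromodomain through which canonical PRC1 reads the PRC2 mark, and their transcripts went different ways. Cbx7, known as the main Cbx protein of mouse embryonic stem cells, read 14.5 in the mDom-/- pool and 7.01 in wild-type, 2.06-fold higher. Its ratio rests on 1 probe, because the other Cbx7 probe was below the floor on both arrays (0.000953 in the mDom-/- pool and -0.142 in wild-type). Cbx8 read 4.74 in the mDom-/- pool and 3.10 in wild-type, 1.53-fold higher. Cbx6 read 11.5 in the mDom-/- pool and 11.7 in wild-type (log2 ratio -0.02). Cbx2, dim on both arrays, read 0.320 in the mDom-/- pool and 0.674 in wild-type, so it was at least 1.25-fold lower; with a floor at the 25th percentile it was 2.10-fold lower. Whether the Cbx genes differ from each other in response could not be tested with 1 array per pool. The 4 compared pluripotency markers, Nanog, Pou5f1, Utf1 and Dppa5a, also read higher, with log2 ratios from 0.95 to 1.12; their part in the Cbx7 value was not tested.

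Promoter sequences are shown for the 3 genes that were at least 1.5-fold higher and for Cbx6, which lies 2 protein-coding genes from Cbx7 and was level, so that a reader can set their start regions side by side. They are from RefSeq on GRCm38.p6, 250 bases before to 50 after the annotated start, on the minus strand in each case and written 5′ to 3′ in the gene's direction. The windows are chr15:79932597-79932896 for Cbx7, chr11:119040864-119041163 for Cbx8, chr3:30969366-30969665 for Phc3 and chr15:79834284-79834583 for Cbx6. Capitals mark matches, on either strand, to the E-box CACGTG of Myc and Max, the GC box GGGCGG of Sp1, AAGATGG of YY1 and TTGGCGC or TTCCCGC of E2F factors.
Cbx7: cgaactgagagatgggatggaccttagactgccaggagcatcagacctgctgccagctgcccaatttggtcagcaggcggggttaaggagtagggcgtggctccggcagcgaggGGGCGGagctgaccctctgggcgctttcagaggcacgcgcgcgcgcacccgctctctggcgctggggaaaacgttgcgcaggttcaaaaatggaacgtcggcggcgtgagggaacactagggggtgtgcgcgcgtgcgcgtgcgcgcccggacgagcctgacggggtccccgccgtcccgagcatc
Cbx8: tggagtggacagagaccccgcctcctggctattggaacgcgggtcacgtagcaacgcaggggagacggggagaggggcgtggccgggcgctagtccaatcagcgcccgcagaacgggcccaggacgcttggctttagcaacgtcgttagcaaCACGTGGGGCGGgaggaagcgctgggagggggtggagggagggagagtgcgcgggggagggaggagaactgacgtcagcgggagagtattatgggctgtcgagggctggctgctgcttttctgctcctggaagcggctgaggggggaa
Phc3: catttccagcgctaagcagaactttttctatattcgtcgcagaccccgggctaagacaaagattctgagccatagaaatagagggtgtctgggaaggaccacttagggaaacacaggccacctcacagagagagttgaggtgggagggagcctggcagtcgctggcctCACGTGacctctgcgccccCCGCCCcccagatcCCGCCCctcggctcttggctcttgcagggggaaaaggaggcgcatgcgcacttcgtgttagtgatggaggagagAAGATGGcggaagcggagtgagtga
Cbx6: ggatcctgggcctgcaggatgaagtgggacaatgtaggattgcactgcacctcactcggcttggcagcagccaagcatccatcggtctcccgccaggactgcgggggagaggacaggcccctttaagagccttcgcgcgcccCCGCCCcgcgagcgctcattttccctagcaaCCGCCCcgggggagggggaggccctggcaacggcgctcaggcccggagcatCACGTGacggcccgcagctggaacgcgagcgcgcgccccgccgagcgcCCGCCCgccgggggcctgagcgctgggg

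Each of these 4 windows held the GC box, which 57.1% of 13338 windows of compared genes also held. The E-box was found in Cbx8, Phc3 and Cbx6 and not in this window of Cbx7, against 9.37% of those windows. The YY1 motif was found only in Phc3 of these 4, against 6.56%, and neither E2F motif in any of them, against 10.8%. In Cbx8 the E-box directly abuts the GC box. In the 4 windows CpG dinucleotides numbered 33 (Cbx7), 24 (Cbx8), 15 (Phc3) and 31 (Cbx6). Over all 41 windows of the 30 regulators found in the table, the median was 24 CpG, against 18 in the windows of compared genes. Genes with several windows, such as Dpy30 and Pcgf5, counted for each window, and Bmi1 and Jarid2, which were not compared, were included. Of these 41 windows 68.3% held the GC box, 17.1% the E-box, 9.76% the YY1 motif and 17.1% an E2F motif. These matches describe the letters of the windows, and the level neighbour Cbx6 shared the E-box and the GC box with Cbx8 and Phc3.

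The Pcgf proteins are the partners of the ligase that define which kind of PRC1 forms. Pcgf2 (Mel-18), a partner in canonical PRC1, gave contradictory readings. Its brighter probe read 43.0 in the mDom-/- pool and 29.7 in wild-type, 1.45-fold higher. Its other probe, designed to a RefSeq mRNA, read 3.98 in the mDom-/- pool and 13.1 in wild-type, 3.29-fold lower. The 2 probes were 2.25 apart on the log2 scale, the widest gap among the 1301 genes with 2 probes measured on both arrays, where the median gap was 0.19. The direction of Pcgf2 is therefore unsettled, and the mean of the probes was -0.59.

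The other Pcgf genes were nearly level by their brightest probes. Pcgf1, the partner in a variant PRC1 with a DNA-binding demethylase subunit, read 11.3 in mDom-/- and 9.96 in wild-type (0.19). Pcgf3 read 14.3 in mDom-/- and 16.4 in wild-type (-0.19), and its other probe read 6.83 and 8.32 in the same pools (-0.29). Pcgf5 read 14.7 in mDom-/- and 15.2 in wild-type (-0.04), but its second probe, near the floor at 0.973 in mDom-/- and 0.669 in wild-type, had a log2 ratio of 0.54. Pcgf6, which joins a variant PRC1 that silences germ-line genes, read 17.8 in mDom-/- and 20.0 in wild-type (-0.17).

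The polyhomeotic proteins link PRC1 complexes into chains. Phc1 read 42.8 in the mDom-/- pool and 45.1 in wild-type, and Phc2 read 38.5 in the mDom-/- pool and 43.7 in wild-type, with log2 ratios of -0.08 and -0.18. Phc3, in the dimmest bin of measured genes, read 1.43 in the mDom-/- pool and 0.943 in wild-type, 1.51-fold higher and just past the bar. Rybp, a subunit of variant PRC1 that takes the place of a Cbx protein, read 7.78 in mDom-/- and 7.11 in wild-type (0.13), and its second probe had a log2 ratio of -0.07.

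**Figure D2:**
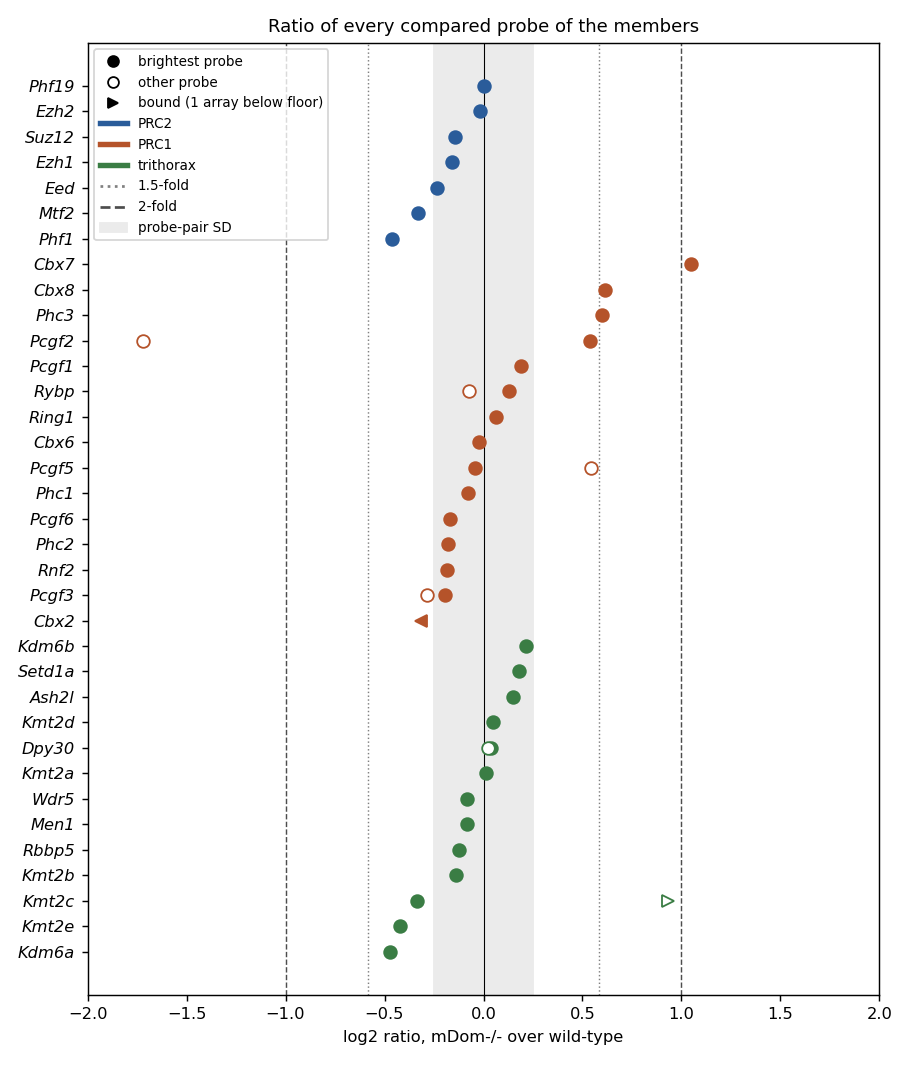
Log2 ratio (mDom-/- over wild-type) of each of the 41 compared probes, with filled symbols for a gene's brightest probe, open symbols for its other probe and triangles for bounds; the grey band is the probe-pair SD of 0.25, dotted lines mark 1.5-fold and dashed lines 2-fold. The 2 Pcgf2 probes lie at 0.54 and -1.72 and those of Kmt2c at -0.34 and at least 0.93, while those of Dpy30 coincide.

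On the trithorax side no gene was 1.5-fold apart by its brightest probe, and 10 of the 13 compared genes were within the probe SD. Over all genes 8.43% were 1.5-fold apart and 63.5% within the SD, so both counts were near the background. Of the methyltransferases, Kmt2a (MLL1), which maintains Hox expression, read 4.08 in the mDom-/- pool and 4.05 in wild-type (log2 ratio 0.01). Kmt2b, its closest relative, read 6.24 in mDom-/- and 6.87 in wild-type (-0.14). Kmt2d, which methylates enhancers, read 1.23 in mDom-/- and 1.19 in wild-type (0.05). Setd1a, of the complexes that set bulk promoter methylation, read 12.0 in mDom-/- and 10.6 in wild-type (0.18), with 2 more probes below the floor on both arrays. These 4 were level within the probe SD.

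Kmt2c, the enhancer methyltransferase paired with Kmt2d, had probes that disagreed. The brighter read 9.49 in the mDom-/- pool and 12.0 in wild-type, 1.26-fold lower. The dimmer read 1.03 in the mDom-/- pool and 0.266, below the floor, in wild-type, at least 1.91-fold higher. The mean over both was 0.30, so the sign of Kmt2c depends on the probe. Kmt2e, a relative without known methyltransferase activity, read 17.3 in mDom-/- and 23.1 in wild-type, 1.34-fold lower.

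The 4 subunits shared by all COMPASS-type complexes had ratios from -0.12 to 0.15. Wdr5, which holds the complex together, read 27.3 in mDom-/- and 29.0 in wild-type (-0.08). Rbbp5 read 3.07 in mDom-/- and 3.34 in wild-type (-0.12), and Ash2l read 27.0 in mDom-/- and 24.4 in wild-type (0.15). Dpy30 had 2 bright probes, with 216.3 in mDom-/- and 210.9 in wild-type by one and 90.1 in mDom-/- and 88.5 in wild-type by the other, log2 ratios of 0.04 and 0.02. Menin (Men1), which ties MLL proteins to chromatin, read 11.1 in mDom-/- and 11.8 in wild-type (-0.08).

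The demethylases that remove the PRC2 mark were less than 1.5-fold apart. Kdm6a (UTX) read 5.77 in the mDom-/- pool and 7.99 in wild-type, 1.39-fold lower, the lowest brightest-probe ratio of the 34 regulators measured on both arrays (Cbx2, a bound, cannot be ranked). Its log2 ratio of -0.471 was barely below that of Phf1 (-0.464). With quantile normalization Phf1 was the lower (-0.465, against -0.445 for Kdm6a), as it was with loess (-0.459 against -0.441). Kdm6b (JMJD3) read 7.35 in mDom-/- and 6.34 in wild-type (0.22), within the probe SD. Kdm6a is the 1 regulator on the X chromosome and is known to escape X inactivation. Xist RNA, the product of the inactive X, stood at -0.41 on the log2 scale. Kdm5c, another escaping X-linked gene, stood at 0.10, and Eif2s3y and Kdm5d, on the Y chromosome, at 0.25 and 0.06. The median over 451 X-linked genes was -0.05. The part of the pools' sex make-up in the Kdm6a value was not tested.

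Further genes of both systems had ratios of like size. Of 35 other Polycomb genes 31 were compared, 18 above 0 (as were 49.4% of all genes) and 13 below, with a median of 0.02. At least 1.5-fold higher was 1, where 4.08% of all genes were, and none was 1.5-fold lower, where 4.35% were. None was 2-fold apart, where 0.845% of all genes were higher and 0.929% lower. The highest was Epop, a PRC2 partner known from embryonic stem cells, which read 54.6 in the mDom-/- pool and 33.0 in wild-type, 1.66-fold higher. The lowest was Bap1, the deubiquitinase that removes the PRC1 mark, which read 2.70 in the mDom-/- pool and 3.89 in wild-type, a log2 ratio of -0.53. Of 31 other trithorax genes 26 were compared, with a median of -0.03, none 1.5-fold higher and 1 lower, Ncoa6, a subunit of the Kmt2c and Kmt2d complexes (1.71 in the mDom-/- pool and 2.66 in wild-type, 1.55-fold). The 1.5-fold counts of both lists were thus near the shares of 4.08% and 4.35% over all genes. The highest there was Nsd3, at 0.55 on the log2 scale.

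Of the Hox genes, textbook targets of both systems, 22 of 27 compared had ratios below 0, as had 50.6% of all genes, with a median of -0.22. Of the 27, 4 were at least 1.5-fold lower, as were 4.35% of all genes. Hoxc9 read 11.4 in mDom-/- and 18.2 in wild-type, but the others were dim. Hoxa9 read 0.647 in mDom-/- and 1.08 in wild-type, Hoxa10 1.20 and 2.63, and Hoxa13 -0.054, below the floor, and 1.84. In the dimmest of the 4 brightness bins 13.1% of genes were 1.5-fold apart, against 1.81% in the brightest. The difference of the Hox genes from the regulators was not tested. Hoxa13 (at least 3.41-fold) and Hoxa10 (2.20-fold) were the 2 at least 2-fold lower, as were 0.929% of all genes, and none of the 27 was 1.5-fold higher. At the other textbook target, the Cdkn2 locus, Cdkn2b had a log2 ratio of 0.46 and Cdkn2a was below the floor on both arrays, while Cdkn1c had 0.12.

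**Figure D3:**
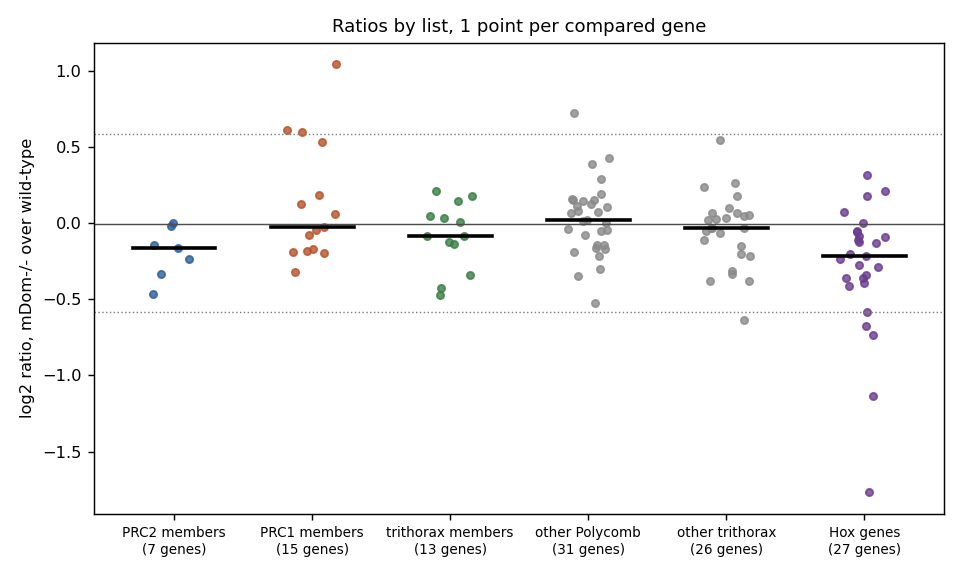
Log2 ratio (mDom-/- over wild-type) of each compared gene in 6 lists, with 1 point per gene, black bars for list medians, a thin line for the median of all genes and dotted lines at 1.5-fold. PRC2, PRC1 and trithorax genes have medians of -0.16, -0.02 and -0.08. In all, 3 PRC1 genes and Epop, of the other Polycomb genes, lie above the upper dotted line, and the Hox median lies at -0.22.

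The genes next to Cbx7, Cbx8 and Pcgf2 were looked up after those ratios were known. Of the 4 protein-coding genes on either side of Cbx7, the immediate neighbour Apobec3 read 3.03 in mDom-/- and 1.95 in wild-type, 1.55-fold higher, and Syngr1 was at least 2.17-fold higher. Pdgfb, the neighbour on the opposite side, had a log2 ratio of 0.00587, and Rpl3, Cbx6, Nptxr and Tab1 lay between -0.21 and 0.11. Cbx8 lies next to Cbx2, which read lower, and the other 4 compared genes around it lay between -0.19 and 0.13.

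The brighter Pcgf2 probe stood at 0.54 and the other at -1.72, so the gene itself cannot be set beside its neighbours in direction. Epop, named above, is 3 protein-coding genes from Pcgf2 on chromosome 11, and Cisd3, the gene between Pcgf2 and Mllt6, read 9.72 in mDom-/- and 6.80 in wild-type (log2 ratio 0.52). Psmb3, on the opposite side, read 173.5 in mDom-/- and 137.7 in wild-type (0.33). In the same stretch Srcin1 had a log2 ratio of 0.25, and Mllt6 and Cwc25 had -0.06 and 0.00826, so not every gene there was higher.

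**Figure D4:**
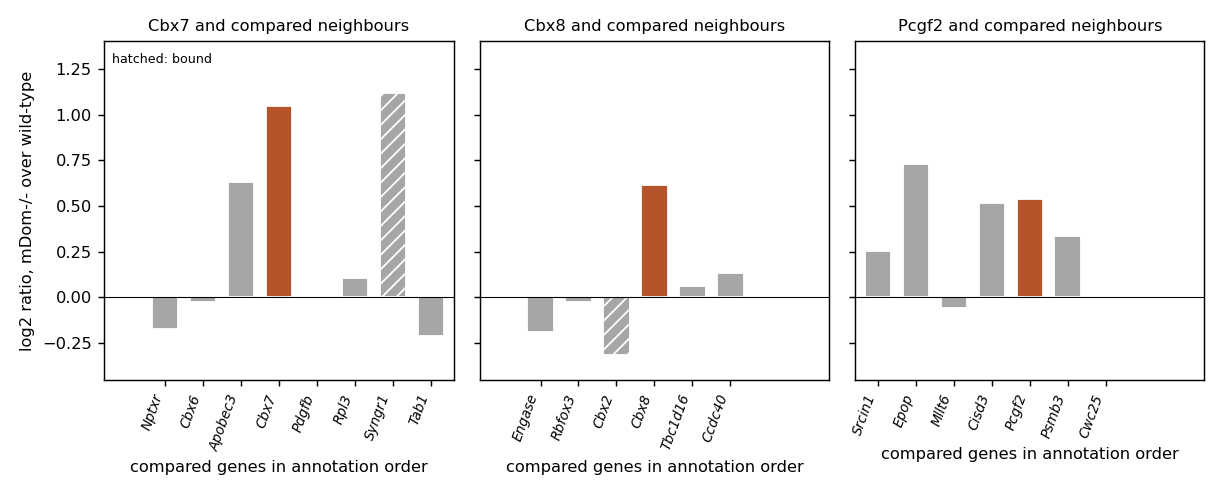
Log2 ratio (mDom-/- over wild-type) of Cbx7, Cbx8 and Pcgf2 (brightest probe, coloured) and of the compared genes among the 4 protein-coding genes on each side, in annotation order, with hatched bars for bounds. Cbx7 (1.05) stands beside Apobec3 (0.63) and Pdgfb (0.00587), and Pcgf2 (0.54, with its other probe, not drawn, at -1.72) beside Cisd3 (0.52) and Psmb3 (0.33).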

How the data were processed

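Total RNA of 2 embryo pools, 1 mDom-/- and 1 wild-type, was measured on 1 CodeLink array each, grouped by sample title. The deposited values are spot intensities on a linear scale, made with the CodeLink System Software, per the labels; the labels do not state the background correction or the scaling. The deposited columns held negative values and medians of 1.05 in both pools, so scaling by array was read from the values. Probes coded as missing were left out. Of 36227 probes, 21615 had 1 gene symbol in the platform annotation, 681 had several and 13931 had none listed; 21487 matched RefSeq identifiers (GRCm38.p6), used for symbols and gene order.

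Each array was divided by its median, raised to a common floor (the higher of the 40th percentiles) and put on the log2 scale. Probes above the floor on either array were compared, and a gene took its brightest probe. Every regulator is named; from the other lists, genes at least 2-fold apart and the highest and lowest ratio were named, and neighbours, markers and other genes outside this rule were taken up after values were seen. The members and lists were chosen with earlier results of these data known. Calculations used Python 3.11.15, NumPy 2.4.6, pandas 2.3.3 and statsmodels 0.14.6 and were tested on simulated data. The number of arrays limits the precision. Alternatives were 4 scalings, 3 floors, the mean over probes and genes measured on both arrays only.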

Additional observations from a re-analysis of the deposited data

How the results depend on the processing

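The 35 compared regulators were recomputed under 9 alternatives wherever they could be compared, which gave 310 values (Phf1, Phc3 and Kmt2d under 8, Cbx2 under 7), and 305 moved by no more than the probe SD of 0.25. The 5 that moved further were Cbx2 with the 25th percentile floor and with no floor (-1.07 each, against a bound of -0.32) and, with the mean over probes, Pcgf2 (-0.59), Pcgf5 (0.25) and Kmt2c (0.30). Most of the 310 values could hardly move by design, so the count of 305 is weak evidence of robustness. For a gene with 1 compared probe above the floor on both arrays, floors, probe mean and both-arrays restriction returned the same ratio. Alternatives that only changed the factor dividing an array shifted all ratios by the same small amount. Cbx2 made the number at least 2-fold apart 2 with the 25th percentile floor and 2 with no floor, in place of 1. The number at least 1.5-fold apart was 3, and lay between 2 (60th percentile floor, where Phc3 was not compared) and 4. Cbx7 stayed between 1.04 and 1.07 and Cbx8 between 0.61 and 0.65 in all 9. Only quantile normalization and loess could move them relative to other genes. These gave 1.07 and 1.07 for Cbx7 and 0.65 and 0.64 for Cbx8. The Polycomb median lay between -0.11 and -0.04, and the trithorax median between -0.09 and -0.06 except with the mean over probes (0.01). The PRC1 median crossed 0 with loess (0.00403), quantile normalization (0.00685) and genes measured on both arrays only (0.0186). That of the other trithorax genes crossed 0 with quantile normalization (0.00295). Over all genes, the number at least 1.5-fold apart was 1108, against 2762 with the 25th percentile floor, 420 with the 60th and 3864 with no floor; at least 2-fold, the counts were 233, 1055, 66 and 2330. No paired analysis was possible because each group had 1 array. Signal over background limits Phf1, Phc3, Cbx2, Kmt2d and the dim probes of Pcgf5 and Kmt2c, all near the floor. It also limits Hoxa9, near the floor, and Hoxa13, below it in the mDom-/- pool.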
